A study of Mus musculus with 12 samples.

Results

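A set of 10 genes of the machinery that carries a lipopolysaccharide signal into the cell were followed across 12 RNA sequencing libraries of mouse dendritic cells. They were 2 co-receptor genes (Cd14 and Ly96), 4 adaptor genes (Myd88, Tirap, Ticam1 and Ticam2) and 4 genes of the IRAK family (Irak1, Irak2, Irak3 and Irak4). They were chosen by name for their place in the pathway, with earlier results of these data known. Matching to the Ensembl identifiers of the count tables was by symbol. All 10 were found among 31053 identifiers, and all 10 passed the filter on low counts that left 13141 genes for testing. The cells were dendritic cells from wild-type (WT) C57BL6 mice, differentiated from bone marrow, enriched for live CD11c+ cells and taken on day 7. The 4 groups of 3 libraries were TolDC + LPS, treated with vitamin D and IL-10 (VitD/IL10) and with LPS, TolDC with VitD/IL10 alone, BMDC + LPS with LPS alone, and BMDC with no treatment. LPS is lipopolysaccharide, a component of the outer membrane of Gram-negative bacteria, and TolDC stands for tolerogenic dendritic cell. The sources used here do not state doses, the length of the LPS exposure, the number of mice or the make-up of a replicate. P-values therefore measure the spread between these libraries, which could be technical.

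As background, LPS is handed by CD14 to the complex of TLR4 with its partner MD-2, the product of Ly96. At the plasma membrane, TIRAP bridges the receptor to MYD88, which assembles IRAK4 with IRAK1 or IRAK2 and leads to NF-kB and MAP kinase signalling. After the complex is taken up into endosomes, TRAM (from Ticam2) bridges it to TRIF (from Ticam1), which leads to IRF3 and type I interferon. IRAK3, also called IRAK-M, lacks kinase activity and is known in macrophages as a brake on this pathway.

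Upstream sequence is shown for 3 members: Irak2 and Irak3, the members whose rise with LPS was larger in TolDC than in BMDC, and Myd88, whose level moved little and whose window alone held interferon and STAT motif letters. Each is the 250 bases before the RefSeq transcription start (build GRCm38.p6), written 5′ to 3′ on the strand of the gene, in lower case, with motif letters in capitals. RefSeq's promoter table held 7 of the 10 members and not Cd14, Ly96 or Ticam2.
Irak2, chr6:113638217-113638466, plus strand: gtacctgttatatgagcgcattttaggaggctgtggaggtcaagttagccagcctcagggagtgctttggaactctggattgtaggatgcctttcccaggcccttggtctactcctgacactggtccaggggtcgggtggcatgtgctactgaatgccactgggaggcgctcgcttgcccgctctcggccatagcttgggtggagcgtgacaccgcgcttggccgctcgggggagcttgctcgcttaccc
Irak3, chr10:120202131-120202380, minus strand: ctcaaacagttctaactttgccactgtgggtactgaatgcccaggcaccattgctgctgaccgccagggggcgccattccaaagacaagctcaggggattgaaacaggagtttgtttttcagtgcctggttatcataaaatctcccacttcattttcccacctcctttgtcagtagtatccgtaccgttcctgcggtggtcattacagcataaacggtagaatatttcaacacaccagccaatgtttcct
Myd88, chr9:119340019-119340268, minus strand: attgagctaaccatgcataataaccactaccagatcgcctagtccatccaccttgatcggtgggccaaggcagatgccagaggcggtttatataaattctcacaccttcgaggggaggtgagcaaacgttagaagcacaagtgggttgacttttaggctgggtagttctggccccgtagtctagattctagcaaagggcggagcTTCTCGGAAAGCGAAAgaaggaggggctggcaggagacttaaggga
The search covered 5 motifs on both strands. They were an NF-kB motif (GGGA and TTCC with 2 bases between, in 1.21% of 32817 RefSeq windows of that length), an AP-1 motif (TGANTCA, 6.75%), an interferon response motif (GAAA and GAAA with 2 bases between, 2.97%), a STAT motif (TTCNNNGAA, 7.01%) and an E-box (CACGTG, 6.02%). The Myd88 window held the interferon motif as GAAAGCGAAA, with its first base 40 bases upstream, and the STAT motif as TTCTCGGAA, 46 bases upstream, and these matches overlap. Its RefSeq start lies 1393 bases inside the outermost GENCODE start of the gene. The Irak3 window overlaps Tmbim4, which is annotated on the opposite strand. The table holds 2 starts each for Irak3, Irak1 and Tirap, of which the one nearest the GENCODE start is used. No motif letters were found in the Irak2 or Irak4 window, nor in either window of Irak3, Irak1 or Tirap, and the Ticam1 window held 1 E-box 135 bases upstream. These matches describe letters only and say nothing of binding.

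Between 21844405 and 41764975 reads were assigned to genes in a library. The 7 markers of dendritic cells summed to 10127 to 12119.7 CPM (counts scaled to a common library total) in TolDC + LPS, 8084 to 8529.9 CPM in TolDC, 10209.6 to 11753 CPM in BMDC + LPS and 7056 to 7423 CPM in BMDC. Of these, Itgax, which encodes CD11c, averaged 1357 to 2090.0 CPM over the groups and Flt3, a growth factor receptor of dendritic cell precursors, was at 0.0495 to 1.75 CPM over the libraries. Markers of B cells summed to at most 4.10 CPM, those of T and NK cells to at most 11.3 CPM and those of erythroid cells to at most 6.07 CPM in any library. The library numbered 1 of each group stood apart from those numbered 2 and 3 in granulocyte transcripts. The 8 neutrophil markers summed to 154, 451 and 377 CPM in TolDC + LPS libraries 1, 2 and 3, to 115, 583 and 569 CPM in TolDC, to 276, 1351 and 1224 CPM in BMDC + LPS and to 529, 2244 and 2174 CPM in BMDC. The 7 mast cell and basophil markers had the same split, with 71.5, 261 and 219.8 CPM in TolDC + LPS, 72.3, 261 and 261 CPM in TolDC, 29.4, 146 and 129.8 CPM in BMDC + LPS and 29.2, 109 and 110.2 CPM in BMDC. Markers of monocytes and macrophages, cells that also carry Cd14, summed to 1512 to 1921 CPM in TolDC + LPS, 913 to 931 CPM in TolDC, 1031 to 1452 CPM in BMDC + LPS and 1865 to 1927 CPM in BMDC, with none of the 8 at 0. Pecam1 led the sum of stromal and endothelial markers, 135 to 452 CPM over all libraries.

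**Figure D1:**
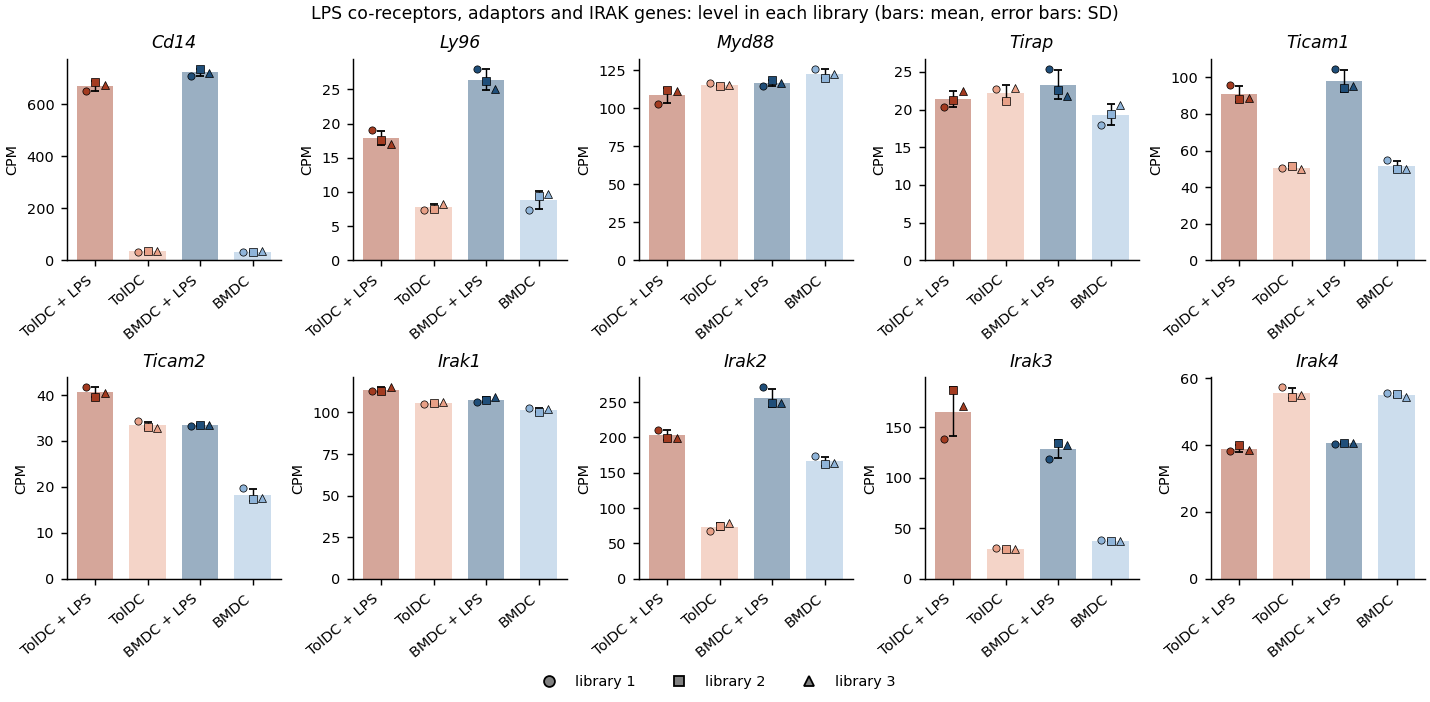
Level of each member in each library (CPM, vertical axis from 0; scales differ between panels), with bars for the mean and error bars for the SD of 3 libraries; marker shapes give the library number. Cd14, Ly96, Ticam1 and Irak3 stand higher in both LPS groups, Irak4 stands lower in both, and Myd88 and Irak1 differ little between the 4 groups.

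Ranked per kilobase of exon, so that genes of different length can be set side by side, Cd14 was the most abundant of the 10 in both LPS groups, at 387 ± 10.4 CPM per kb in TolDC + LPS and 417 ± 7.89 CPM per kb in BMDC + LPS (SD, n = 3). Without LPS it was behind Myd88 and Irak1 in TolDC, at 20.2 ± 1.23 CPM per kb, and behind Myd88, Irak2 and Irak1 in BMDC, at 19.4 ± 1.18 CPM per kb. Myd88 led both groups without LPS, with 44.8 ± 0.291 CPM per kb in TolDC and 47.6 ± 1.23 CPM per kb in BMDC. Behind Cd14 in TolDC + LPS came Irak2, Irak3 and Myd88, at 46.1 ± 1.52, 44.96 ± 6.65 and 42.2 ± 1.94 CPM per kb, whose spreads reach into each other. Tirap was the least abundant in TolDC + LPS, TolDC and BMDC + LPS, at 4.34 ± 0.210, 4.52 ± 0.192 and 4.73 ± 0.382 CPM per kb. In BMDC the lowest was Ticam2, at 3.16 ± 0.225 CPM per kb, with Tirap at 3.92 ± 0.274 CPM per kb.

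With LPS, 7 of the 10 members rose and 1 fell in TolDC, and 8 rose and 1 fell in BMDC. Over all 13141 genes tested, 35.4% rose and 35.9% fell in TolDC (71.3% in either direction), and 36.7% rose and 36.4% fell in BMDC (73.2%), so that a call by itself was common. These calls are edgeR quasi-likelihood tests with a Benjamini-Hochberg adjusted p below 0.05 over all genes, and log2 changes are given ± SE. At least a 2-fold rise was reached by 4 members in TolDC (Cd14, Ly96, Irak2 and Irak3) and by 3 in BMDC (Cd14, Ly96 and Irak3), against 9.64% and 11.2% of all genes. The median log2 change of the members was 0.56 in TolDC and 0.75 in BMDC, beside a median of all genes of -0.0017 and -0.00030. In bulk libraries, a lower level in every cell and fewer cells with that transcript cannot be told apart.

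Cd14, the surface protein (it has no cytoplasmic part of its own) that passes LPS to TLR4, made the largest change of the 10. Its gene (ENSMUSG00000051439) lies on chromosome 18, 36725067 to 36726798, minus strand, in GRCm38. In TolDC + LPS it was at 649.7, 685.1 and 673.7 CPM in libraries 1, 2 and 3, against 32.6, 35.9 and 36.6 CPM in TolDC. In BMDC + LPS it was at 708.9, 736.1 and 720.5 CPM, against 31.5, 33.7 and 35.5 CPM in BMDC. Every LPS library stood far above every library without LPS, and the TolDC + LPS and BMDC + LPS libraries did not overlap. The log2 change with LPS was 4.26 ± 0.053 in TolDC (19.1-fold, edgeR adjusted p = 2.44e-21) and 4.43 ± 0.054 in BMDC (21.5-fold, edgeR adjusted p = 2.28e-21). Of all genes, 1.26% changed by more in TolDC and 1.05% by more in BMDC, in either direction. Markers of monocytes and macrophages also moved with LPS, and not as a block. Over all genes, 35.4% rose and 35.9% fell in TolDC, and 36.7% rose and 36.4% fell in BMDC. Of the 8 markers, 5 rose and 3 fell in TolDC, and 3 rose and 5 fell in BMDC. Their sum in BMDC was set by Ccr2, a chemokine receptor singled out after its values were seen, at 46.5 ± 1.22 CPM in BMDC + LPS and 1049.9 ± 46.5 CPM in BMDC. Without Ccr2 the sum was 1510.5 to 1917.7 CPM in TolDC + LPS and 867 to 882 CPM in TolDC, and 983 to 1406 CPM in BMDC + LPS and 834 to 869 CPM in BMDC. With all 8 kept, the sum was lower with LPS in BMDC, at 1031 to 1452 CPM against 1865 to 1927 CPM. The direction in BMDC thus depended on leaving out that 1 marker. The part of such cells in the level of Cd14 was not tested.

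Ly96 encodes MD-2, the secreted protein in whose pocket LPS sits when it is bound to TLR4 (ENSMUSG00000025779, chromosome 1, 16688051 to 16709611, plus strand). In TolDC + LPS it was at 19.0, 17.6 and 17.01 CPM, against 7.33, 7.55 and 8.31 CPM in TolDC. BMDC + LPS libraries held 28.0, 26.2 and 25.0 CPM, against 7.34, 9.43 and 9.64 CPM in BMDC. Both LPS groups were above both groups without LPS, BMDC + LPS was the highest, and TolDC and BMDC overlapped. The rise was 2.30-fold in TolDC (log2 1.20 ± 0.092, edgeR adjusted p = 8.20e-10) and 3.01-fold in BMDC (log2 1.59 ± 0.090, edgeR adjusted p = 8.27e-12).

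Tlr4, the receptor itself and no member of the set, moved the other way. It averaged 51.8 ± 4.02 CPM in TolDC + LPS, 96.6 ± 1.81 CPM in TolDC, 60.3 ± 1.79 CPM in BMDC + LPS and 126.2 ± 4.90 CPM in BMDC (SD, n = 3), and its 4 groups did not overlap. The log2 change with LPS was -0.90 ± 0.050 in TolDC and -1.06 ± 0.050 in BMDC (edgeR adjusted p = 6.36e-12 and 4.70e-13). Thus the transcripts of both co-receptors rose in the libraries in which that of the receptor fell.

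Among the adaptors, Myd88, which joins the receptor's intracellular TIR domain to the IRAK kinases, was the most even (ENSMUSG00000032508, chromosome 9, 119335934 to 119341411, minus strand). Its levels were 102.8, 111.7 and 111.2 CPM in TolDC + LPS and 116.3, 114.9 and 115.2 CPM in TolDC. They were 114.5, 118.6 and 116.3 CPM in BMDC + LPS and 126.0, 119.6 and 122.6 CPM in BMDC. Each LPS group was a little below its unstimulated partner without overlap, but the log2 changes of -0.09 ± 0.039 and -0.08 ± 0.039 did not pass the test (edgeR adjusted p = 0.0502 in TolDC and 0.0887 in BMDC). In TolDC the change passed without any 1 of BMDC replicate 1, BMDC + LPS replicate 1 and TolDC + LPS replicate 2 (-0.09 to -0.11, adjusted p = 0.0385 to 0.0466). It also passed with the library number as a block in the fit (-0.09, edgeR adjusted p = 0.0263).

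Tirap, the membrane-bound bridge to MYD88, gave different calls in the 2 cell types (ENSMUSG00000032041, chromosome 9, 35184551 to 35200291, minus strand). It was at 20.4, 21.3 and 22.5 CPM in TolDC + LPS and at 22.7, 21.2 and 22.9 CPM in TolDC, which overlap. BMDC + LPS held 25.4, 22.7 and 21.8 CPM, against 17.95, 19.4 and 20.7 CPM in BMDC, with no overlap. The log2 change was -0.06 ± 0.068 in TolDC (edgeR adjusted p = 0.467) and 0.28 ± 0.070 in BMDC (edgeR adjusted p = 0.00160). Without the 4 libraries numbered 1, the change in BMDC was 0.16 (edgeR adjusted p = 0.0421).

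Both genes of the endosomal branch rose. Ticam1, which encodes TRIF (ENSMUSG00000047123, chromosome 17, 56269319 to 56276786, minus strand), was at 95.9, 88.1 and 88.5 CPM in TolDC + LPS and at 50.6, 51.5 and 49.95 CPM in TolDC. In BMDC + LPS it was at 104.8, 94.4 and 95.1 CPM, against 54.99, 49.7 and 50.1 CPM in BMDC. LPS groups and unstimulated groups were well apart, while the LPS groups of the 2 cell types overlapped. The log2 rise was 0.84 ± 0.051 in TolDC (edgeR adjusted p = 2.75e-11) and 0.93 ± 0.051 in BMDC (edgeR adjusted p = 6.17e-12).

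Ticam2, which encodes the bridging adaptor TRAM (ENSMUSG00000056130, chromosome 18, 46557291 to 46574533, minus strand), was at 41.7, 39.5 and 40.5 CPM in TolDC + LPS and at 34.3, 33.01 and 32.9 CPM in TolDC. BMDC + LPS held 33.3, 33.6 and 33.5 CPM, against 19.8, 17.4 and 17.7 CPM in BMDC. The level in TolDC without LPS overlapped that of BMDC with LPS, and BMDC stood alone at the bottom. The log2 change with LPS was 0.28 ± 0.049 in TolDC (edgeR adjusted p = 5.14e-05) and 0.87 ± 0.054 in BMDC (edgeR adjusted p = 3.22e-11). Ticam2 shares exon bases with Tmed7 on the same strand, where reads cannot be assigned to either gene alone. Tmed7 averaged 96.9 ± 3.38 CPM in TolDC + LPS, 119 ± 9.34 CPM in TolDC, 107 ± 4.97 CPM in BMDC + LPS and 128 ± 5.14 CPM in BMDC, an order unlike that of Ticam2.

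In the IRAK family, the kinases that start the cascade moved little or fell. Irak4, the kinase at the head of the cascade (ENSMUSG00000059883, chromosome 15, 94543643 to 94581815, plus strand), was the 1 member that fell. It was at 38.1, 40.2 and 38.5 CPM in TolDC + LPS, against 57.4, 54.6 and 55.1 CPM in TolDC. It was at 40.4, 40.7 and 40.8 CPM in BMDC + LPS, against 55.6, 55.4 and 54.5 CPM in BMDC. Neither pair overlapped, and the unstimulated groups of the 2 cell types did. The log2 change was -0.52 ± 0.039 in TolDC (edgeR adjusted p = 8.29e-10) and -0.44 ± 0.040 in BMDC (edgeR adjusted p = 9.81e-09). Irak4 overlaps Twf1 on the opposite strand, and 22.3% to 24.1% of the counts of both strands at Irak4 were on that strand in TolDC + LPS, 15.95% to 19.96% in TolDC, 22.3% to 23.9% in BMDC + LPS and 14.7% to 16.6% in BMDC, against a median of 0.314% over genes with more than 1000 counts. The levels above are of the Irak4 strand alone. Irak1, the kinase that IRAK4 phosphorylates (ENSMUSG00000031392, chromosome X, 74013914 to 74023918, minus strand), averaged 113.6 ± 1.44 CPM in TolDC + LPS, 105.8 ± 0.530 CPM in TolDC, 107.8 ± 1.70 CPM in BMDC + LPS and 101.5 ± 1.18 CPM in BMDC (SD, n = 3). Its log2 rise with LPS was 0.10 ± 0.033 in TolDC (edgeR adjusted p = 0.00966) and 0.09 ± 0.034 in BMDC (edgeR adjusted p = 0.0274). Of all genes, 85.1% in TolDC and 88.8% in BMDC had a larger absolute log2 change, in either direction. The TolDC call did not hold with libraries 2 and 3 of each group summed (log2 0.11, edgeR adjusted p = 0.0543). The BMDC call did not hold when only the 2 groups compared were fitted (log2 0.07, edgeR adjusted p = 0.125), without a filter on low counts (0.06, adjusted p = 0.242), with libraries 2 and 3 summed (0.08, adjusted p = 0.151), or without BMDC replicate 2 (0.07, adjusted p = 0.0975), BMDC + LPS replicate 2 (0.09, adjusted p = 0.0530) or replicate 3 (0.08, adjusted p = 0.0924).

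Irak2, the family member known to keep signalling going late in a response (ENSMUSG00000060477, chromosome 6, 113638467 to 113695026, plus strand), rose in both cell types and was lowest in TolDC. TolDC + LPS held 211.2, 199.4 and 199.6 CPM, against 68.2, 74.8 and 78.7 CPM in TolDC. BMDC + LPS held 271.4, 248.4 and 248.6 CPM, against 174.0, 162.6 and 163.3 CPM in BMDC. All 4 groups were apart, in the order BMDC + LPS, TolDC + LPS, BMDC and TolDC. The rise was 2.75-fold in TolDC (log2 1.46 ± 0.052, edgeR adjusted p = 1.02e-14) and 1.54-fold in BMDC (log2 0.62 ± 0.050, edgeR adjusted p = 1.89e-09).

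Irak3, the member without kinase activity (ENSMUSG00000020227, chromosome 10, 120141648 to 120202130, minus strand), had the steepest rise of the family. It was at 138.5, 186.4 and 170.8 CPM in TolDC + LPS, against 30.1, 29.4 and 29.6 CPM in TolDC. In BMDC + LPS it was at 118.6, 134.6 and 132.3 CPM, against 38.8, 37.0 and 37.6 CPM in BMDC. No 2 groups overlapped: TolDC was the lowest without LPS and the highest with it. The rise was 5.57-fold in TolDC (log2 2.48 ± 0.098, edgeR adjusted p = 5.19e-10) and 3.40-fold in BMDC (log2 1.76 ± 0.096, edgeR adjusted p = 9.34e-09). Library 1 had the lowest Irak3 in both LPS groups and the highest in both groups without LPS, while its neutrophil markers were the lowest within each of the 4 groups. The markers of monocytes and macrophages were lowest in library 1 of the LPS groups, at 1512 CPM against 1921 and 1825 CPM in libraries 2 and 3 of TolDC + LPS, and at 1031 CPM against 1452 and 1391 CPM in those of BMDC + LPS. Whether either kind of cell had a part in the level of Irak3 was not tested.

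**Figure D2:**
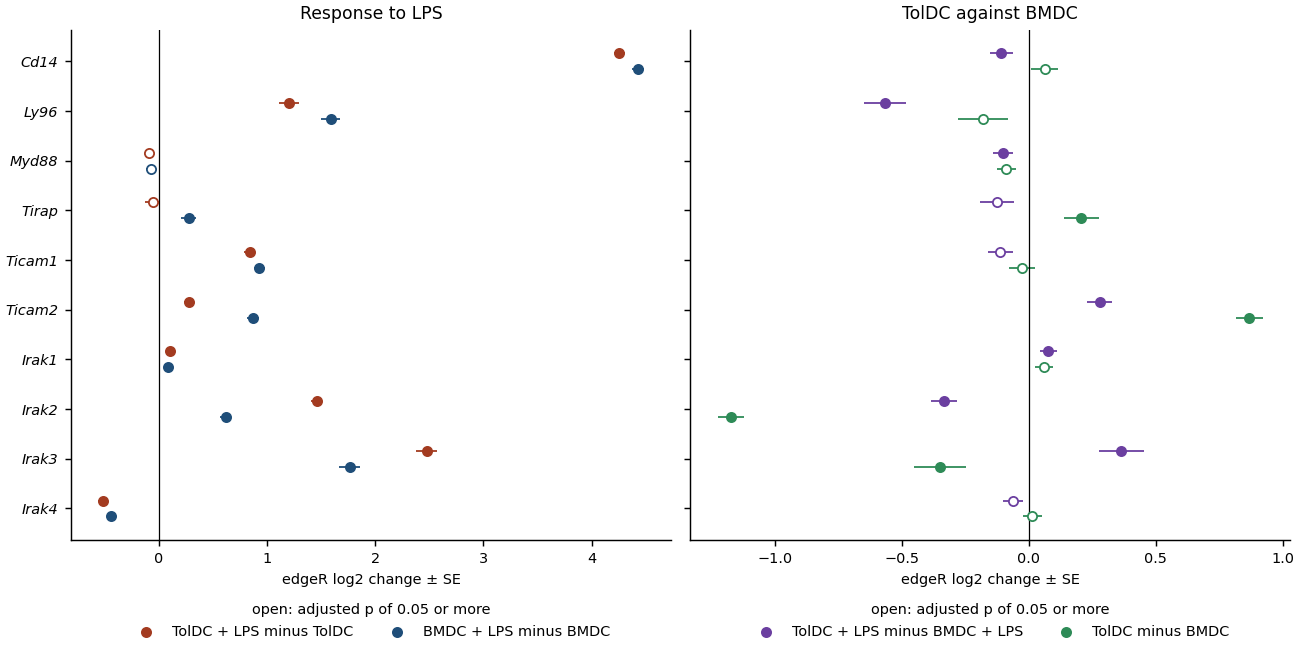
edgeR log2 change ± SE of each member with LPS (left, TolDC and BMDC) and between cell types (right, with and without LPS), where filled points passed an adjusted p below 0.05 and open points did not. Cd14 lies near 4 in both cell types, Irak2 and Irak3 lie further right in TolDC than in BMDC, and Irak3 lies on opposite sides of 0 in the right panel.

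Set against BMDC without LPS, TolDC differed in 4 of the 10 members, 2 higher and 2 lower. Of all genes, 32.0% were higher and 30.4% lower (62.4% in either direction). Ticam2 was 1.83-fold higher (log2 0.87 ± 0.053, edgeR adjusted p = 6.90e-11), with all 3 TolDC libraries above all 3 BMDC libraries. Irak2 was lower, at 73.9 ± 5.29 CPM in TolDC and 166.6 ± 6.41 CPM in BMDC (log2 -1.17 ± 0.052, edgeR adjusted p = 5.75e-13). It was the single member past a 2-fold difference, which 6.49% of all genes passed upwards and 8.03% downwards. Irak3 was lower by less, at 29.7 ± 0.371 CPM in TolDC and 37.8 ± 0.905 CPM in BMDC (log2 -0.35 ± 0.10, edgeR adjusted p = 0.0115), and Tirap was higher (log2 0.21 ± 0.070, edgeR adjusted p = 0.0149). The Irak3 call did not hold without BMDC replicate 1 (log2 -0.33, edgeR adjusted p = 0.0508). That of Tirap did not hold without BMDC replicate 1 (0.16, adjusted p = 0.0793), without TolDC replicate 3 (0.19, adjusted p = 0.0567) or without the 4 libraries numbered 1 (0.15, adjusted p = 0.0552).

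The other 6 did not pass. Cd14 was at 35.0 ± 2.12 CPM in TolDC and 33.6 ± 2.04 CPM in BMDC (log2 0.06, edgeR adjusted p = 0.312), and the log2 differences of Ticam1, Irak1 and Irak4 were -0.03, 0.06 and 0.01. Myd88 had a log2 difference of -0.09 (edgeR adjusted p = 0.0572), which passed without any 1 of BMDC replicates 2 and 3, BMDC + LPS replicate 1 and TolDC + LPS replicate 1 (-0.09 to -0.11, adjusted p = 0.0166 to 0.0480). With the library number as a block it passed too (-0.09, edgeR adjusted p = 0.0300). Ly96 had a log2 difference of -0.18 ± 0.099 (edgeR adjusted p = 0.120), which became -0.30 (adjusted p = 0.00759) without BMDC replicate 1, whose 7.34 CPM were below the 9.43 and 9.64 CPM of the other BMDC libraries. It was -0.26 (adjusted p = 0.0198) without the libraries numbered 1. Tlr4 was lower in TolDC (log2 -0.39 ± 0.048, edgeR adjusted p = 1.29e-06).

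Under LPS, TolDC differed from BMDC in 7 members, 3 higher and 4 lower, while 34.3% of all genes were higher and 33.7% lower (67.9% in either direction). None reached 2-fold, which 6.85% of genes passed upwards and 9.50% downwards. The largest difference was that of Ly96, at 17.9 ± 1.02 CPM in TolDC + LPS and 26.4 ± 1.52 CPM in BMDC + LPS (log2 -0.57 ± 0.082, edgeR adjusted p = 6.85e-06). Irak2 was lower (log2 -0.33 ± 0.050, edgeR adjusted p = 9.81e-06) and Ticam2 was higher (log2 0.28 ± 0.050, edgeR adjusted p = 6.98e-05). Irak3 was higher, at 165.3 ± 24.5 CPM in TolDC + LPS and 128.5 ± 8.66 CPM in BMDC + LPS (log2 0.36 ± 0.089, edgeR adjusted p = 0.00345). With only these 2 groups in the fit, the Irak3 difference kept its size and missed the threshold (0.36, adjusted p = 0.0616). The 3 remaining calls were small: Cd14 (-0.11 ± 0.045, edgeR adjusted p = 0.0400), Myd88 (-0.10 ± 0.039, edgeR adjusted p = 0.0294) and Irak1 (0.08 ± 0.033, edgeR adjusted p = 0.0496). The Cd14 call was lost (log2 -0.09 to -0.11, adjusted p = 0.0536 to 0.119) without any 1 of BMDC replicate 2, BMDC + LPS replicates 2 and 3, TolDC replicate 2 or TolDC + LPS replicates 1 and 3. That of Myd88 was lost without BMDC + LPS replicate 2 or 3 or TolDC + LPS replicate 1 (-0.08 to -0.10, adjusted p = 0.0632 to 0.110), and that of Irak1 without any 1 of BMDC replicates 2 and 3, TolDC replicate 2 and the 6 LPS libraries (0.06 to 0.09, adjusted p = 0.0528 to 0.140). Ticam1 missed the threshold (-0.11, adjusted p = 0.0517) and passed it without any 1 of BMDC replicates 1 and 3, BMDC + LPS replicates 2 and 3 and TolDC + LPS replicate 1 (-0.11 to -0.16, adjusted p = 0.00918 to 0.0465). It also passed with the library number as a block (-0.11, edgeR adjusted p = 0.00719). Tirap and Irak4 did not pass (log2 -0.13 and -0.06, adjusted p = 0.110 and 0.183).

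The 2 responses to LPS were then compared directly, as the change in TolDC minus the change in BMDC. This difference passed for 5 of 10 members, 2 with a larger and 3 with a smaller or more negative change in TolDC, while 20.4% of all genes were higher and 24.0% lower by the same test (44.4% in either direction). A 2-fold difference between responses was reached by 0 members, and by 3.67% of all genes upwards and 4.62% downwards. Irak2 changed by 0.84 ± 0.072 more on the log2 scale in TolDC (edgeR adjusted p = 2.89e-08) and Irak3 by 0.71 ± 0.14 more (edgeR adjusted p = 0.00129). Ticam2 had a difference of -0.59 ± 0.073 (edgeR adjusted p = 3.03e-06), Ly96 of -0.39 ± 0.13 (edgeR adjusted p = 0.0208) and Tirap of -0.33 ± 0.097 (edgeR adjusted p = 0.00948). That of Ly96 was -0.27 (adjusted p = 0.0589) without BMDC replicate 1, and was also lost without TolDC replicate 3 (-0.33, adjusted p = 0.0726) or TolDC + LPS replicate 3 (-0.35, adjusted p = 0.0581). Tirap fell to a difference of -0.16 (adjusted p = 0.155) without the 4 libraries numbered 1. Cd14 missed the threshold (-0.17 ± 0.069, edgeR adjusted p = 0.0517) and passed it without any 1 of BMDC replicate 3, BMDC + LPS replicate 1 and TolDC replicate 1 (-0.18 to -0.22, adjusted p = 0.0155 to 0.0420), and Myd88, Ticam1, Irak1 and Irak4 had differences of -0.01, -0.09, 0.02 and -0.08. With the library number as a block, the Cd14 difference passed (-0.17, edgeR adjusted p = 0.00713).

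The make-up of the IRAK family differed between the groups. Shares are of the summed counts per kilobase of exon of the 4 genes. They sum to the whole, so a share can fall while the level of its gene does not. The level of Irak1 itself rose slightly with LPS (log2 0.10 in TolDC and 0.09 in BMDC). Irak3 made up 36.5 ± 3.85% in TolDC + LPS and 13.8 ± 0.375% in TolDC, and 28.2 ± 1.97% in BMDC + LPS and 12.8 ± 0.0773% in BMDC (SD, n = 3). Irak2 held 37.6 ± 2.92% in TolDC + LPS and 28.7 ± 1.59% in TolDC, but 46.8 ± 2.29% in BMDC + LPS and 46.9 ± 0.673% in BMDC, which overlap. Irak1 held the largest share in TolDC, 38.4 ± 0.468%, against 26.7 ± 0.438% in BMDC, and fell to 19.6 ± 0.851% in TolDC + LPS and 18.4 ± 0.338% in BMDC + LPS. Irak4 held 6.31 ± 0.160% in TolDC + LPS, 19.0 ± 0.780% in TolDC, 6.53 ± 0.0478% in BMDC + LPS and 13.6 ± 0.282% in BMDC. By mean share, Irak1 led in TolDC and Irak2 in BMDC + LPS and BMDC, while in TolDC + LPS the shares of Irak2 and Irak3 were within each other's SD.

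Set per kilobase, the log2 ratio of Irak3 to Irak4 was 2.53 ± 0.189 in TolDC + LPS and -0.46 ± 0.0209 in TolDC. It was 2.11 ± 0.0926 in BMDC + LPS and -0.10 ± 0.0335 in BMDC. For the co-receptors, the log2 ratio of Cd14 to Ly96 was 4.47 ± 0.116 in TolDC + LPS and 1.42 ± 0.0605 in TolDC, and 4.01 ± 0.0998 in BMDC + LPS and 1.18 ± 0.140 in BMDC. Neither ratio overlapped between any of the groups compared. An exact two-sided permutation test of 3 libraries against 3 cannot go below p = 0.1, which most of these 40 comparisons of shares and ratios reached (0.129 after adjustment over the 40), so none can pass 0.05.

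**Figure D3:**
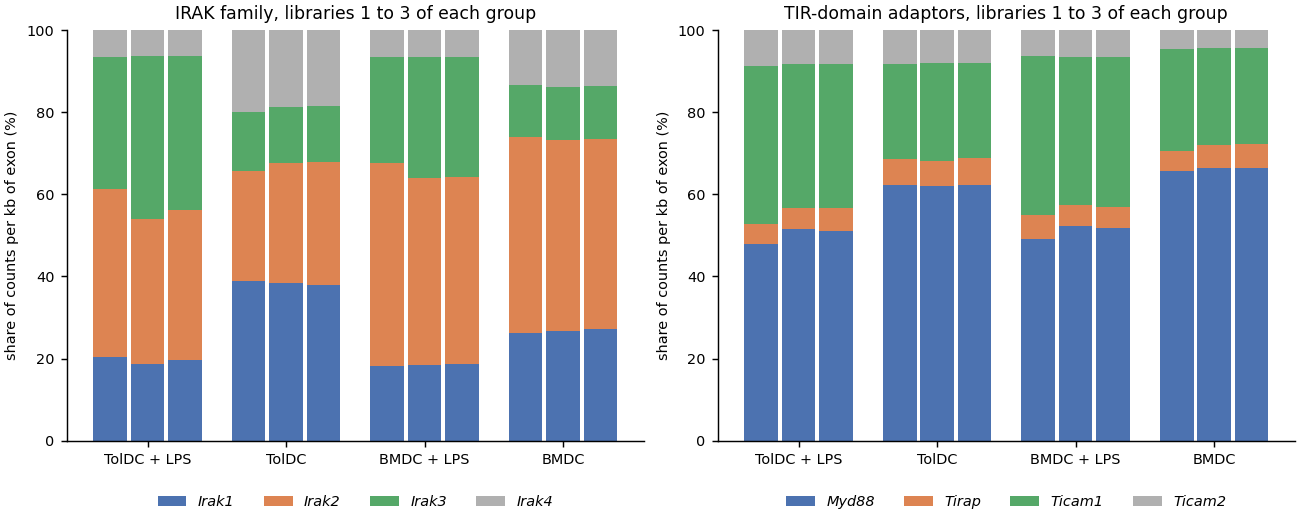
Share of each gene in the summed counts per kb of exon (percent, 0 to 100) for the 4 IRAK genes (left) and the 4 adaptor genes (right), with 1 stacked bar for each of 3 libraries in TolDC + LPS, TolDC, BMDC + LPS and BMDC. In both LPS groups the Irak3 band is wider, the Irak1 and Irak4 bands are narrower, the Ticam1 band is wider, and the Myd88 band is narrower as a share of the 4 adaptors.

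Among the adaptors, the share of Myd88 was 50.3 ± 2.04% in TolDC + LPS and 62.2 ± 0.111% in TolDC, and 51.1 ± 1.69% in BMDC + LPS and 66.2 ± 0.373% in BMDC. Shares sum to the whole, and the level of Myd88 itself did not pass the test with LPS. Ticam1 held 36.2 ± 1.95% in TolDC + LPS and 23.5 ± 0.396% in TolDC, against 37.0 ± 1.52% in BMDC + LPS and 24.0 ± 0.688% in BMDC. Ticam2 made up 8.36 ± 0.269% in TolDC + LPS and 8.01 ± 0.132% in TolDC, which overlap, and 6.53 ± 0.144% in BMDC + LPS and 4.39 ± 0.183% in BMDC. Tirap averaged 5.17% in TolDC + LPS, 6.27% in TolDC, 5.34% in BMDC + LPS and 5.46% in BMDC.

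Other genes of the pathway, taken from lists by function, were counted beside the members. In recognition of LPS and the folding of Toll-like receptors, 0 of 8 rose and 5 fell in TolDC (median log2 change -0.65), and 0 rose and 6 fell in BMDC (-0.53). Calls in either direction made up 62.5% of this list in TolDC and 75% in BMDC, beside 71.3% and 73.2% of all genes. Besides Tlr4, the genes that fell included Cd180 (RP105), a TLR4-like surface receptor. Cd180 was at 36.9 ± 2.02 CPM in TolDC + LPS and 103 ± 7.23 CPM in TolDC (log2 -1.48 ± 0.059, edgeR adjusted p = 1.05e-13). Its partner Ly86 (MD-1), related to MD-2, fell by 2.01 on the log2 scale in TolDC and by 2.61 in BMDC (edgeR adjusted p = 2.81e-12 and 3.52e-13). So Ly86 fell with LPS in both cell types, in which Ly96 rose. Hsp90b1, the chaperone that folds Toll-like receptors, fell by 0.80 in BMDC (edgeR adjusted p = 1.27e-12). It was at 814 ± 15.9 CPM in TolDC + LPS, against 1086 ± 48.2 CPM in TolDC.

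Below MYD88 and the IRAK kinases, 8 of 16 genes rose and 4 fell in TolDC, and 9 rose and 3 fell in BMDC, with median log2 changes of 0.16 and 0.17. The share called was 75% in each, beside 71.3% and 73.2% of all genes. Traf6, the ubiquitin ligase that IRAK kinases recruit, was at 76.6 ± 1.31 CPM in TolDC + LPS and 39.7 ± 1.00 CPM in TolDC, and at 104.9 ± 4.40 CPM in BMDC + LPS and 47.7 ± 2.72 CPM in BMDC (log2 0.95 ± 0.046 and 1.13 ± 0.046, edgeR adjusted p = 1.14e-12 and 5.40e-14). Map3k8, a kinase upstream of ERK, rose by 0.95 in TolDC and 1.06 in BMDC on the log2 scale. Ikbkg, the regulatory subunit of the IKK complex, rose by 1.15 in TolDC (edgeR adjusted p = 2.13e-14). In BMDC + LPS it was at 101.1 ± 4.61 CPM, against 59.0 ± 2.67 CPM in BMDC. Peli2, one of the Pellino ligases that act on IRAK proteins, was higher in TolDC than in BMDC both without LPS (log2 1.03 ± 0.069, edgeR adjusted p = 2.42e-10) and with it (1.41 ± 0.077, adjusted p = 9.55e-12).

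Below TRIF, 6 of 12 genes rose and 4 fell in TolDC (median 0.10), and 8 rose and 4 fell in BMDC (0.32). The share called was 83.3% and 100%, beside 71.3% and 73.2% of all genes. Ikbke, a kinase that phosphorylates IRF3, was at 223.5 ± 16.9 CPM in TolDC + LPS and 62.9 ± 2.59 CPM in TolDC, and at 333 ± 11.3 CPM in BMDC + LPS and 99.4 ± 1.299 CPM in BMDC. Its log2 rise was 1.83 ± 0.051 in TolDC and 1.74 ± 0.050 in BMDC (edgeR adjusted p = 2.73e-16 and 3.73e-16). Tank, a scaffold of that kinase, rose by 1.00 in TolDC and 1.07 in BMDC. Ripk3, which TRIF can bind through a shared motif and which acts in necroptosis, fell by 1.15 in TolDC and by 0.93 in BMDC (edgeR adjusted p = 5.62e-14 and 3.33e-12).

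Of 14 inhibitors of TLR4 signalling other than Irak3, 7 rose and 4 fell in TolDC (median -0.03), and 5 rose and 4 fell in BMDC (0.08). The share called was 78.6% and 64.3%, beside 71.3% and 73.2% of all genes. Tnfaip3 (A20), which removes ubiquitin chains from TRAF6, was at 427 ± 4.53 CPM in TolDC + LPS and 117 ± 5.63 CPM in TolDC, and at 341 ± 6.05 CPM in BMDC + LPS and 70.4 ± 2.56 CPM in BMDC. Its partner Tnip1 rose by 2.62 ± 0.041 in TolDC and 2.37 ± 0.040 in BMDC on the log2 scale. Tollip, which binds IRAK1, rose by 0.92 ± 0.042 in TolDC (edgeR adjusted p = 4.35e-13). In BMDC + LPS it was at 137.5 ± 7.03 CPM, against 90.3 ± 1.11 CPM in BMDC. Cd300a, an inhibitory surface receptor, fell by 1.92 in BMDC (edgeR adjusted p = 1.25e-17) and the TolDC minus BMDC difference between its responses was 1.32 ± 0.059 (adjusted p = 6.38e-12). Among genes of uptake and recycling of the receptor complex, 2 of 8 rose and 4 fell in TolDC, and 4 rose and 3 fell in BMDC. The share called was 75% and 87.5%, beside 71.3% and 73.2% of all genes. In this list Syk, the kinase that CD14 uses to bring TLR4 into endosomes, was at 713 ± 23.5 CPM in TolDC + LPS and 300.4 ± 9.87 CPM in TolDC (log2 1.247 ± 0.042, edgeR adjusted p = 4.71e-15). It was at 736 ± 4.11 CPM in BMDC + LPS and 422 ± 21.02 CPM in BMDC (log2 0.80 ± 0.042, adjusted p = 2.42e-12).

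**Figure D4:**
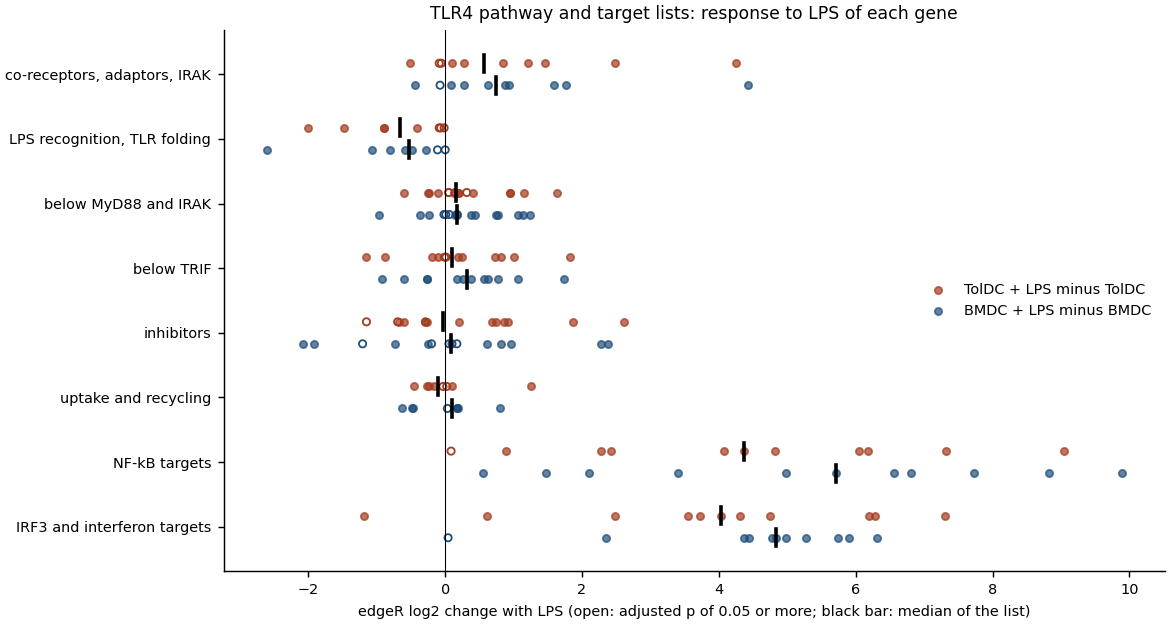
edgeR log2 change with LPS of every gene in the 10-member set and in 7 lists of the TLR4 pathway and its targets, for TolDC (upper row of each list) and BMDC (lower row); filled points passed an adjusted p below 0.05, and black bars are list medians. The pathway lists lie around 0, the recognition list lies below it, and the 2 target lists have medians of 4.04 to 5.72.

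Targets of the 2 branches rose far more than the machinery. Their lists hold genes known as targets of LPS, so that this contrast follows from the choice of genes and tests nothing. Of all genes, 35.4% rose in TolDC and 36.7% in BMDC. Of 11 targets of NF-kB, 10 rose in TolDC (median log2 change 4.36) and 11 rose in BMDC (5.72). Il6 was at 280.3 ± 11.7 CPM in TolDC + LPS and 3.85 ± 1.38 CPM in TolDC, and at 463 ± 11.6 CPM in BMDC + LPS and 4.90 ± 0.658 CPM in BMDC. Of 11 targets of IRF3 and interferon, 10 rose and 1 (Mx1) fell in TolDC (median 4.04), and 10 rose in BMDC (4.84). Ifnb1 had 0 counts in both groups without LPS and 35 and 19 counts over the libraries of TolDC + LPS and BMDC + LPS, so that it was at least 9.04-fold and at least 7.21-fold higher at a floor of 3 counts over the group. With Ifnb1 at that bound, the medians were 3.73 in TolDC and 4.77 in BMDC.

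Under LPS, none of the 11 IRF3 and interferon targets was called higher in TolDC and 10 were lower, with a median log2 difference of -1.52. The 1 target not called had a log2 difference of 0.39. Ifnb1 rested on few counts, 35 over the TolDC + LPS libraries and 19 over those of BMDC + LPS. Ticam2 was higher in TolDC + LPS (0.28), and Ticam1 did not pass in the main fit (-0.11). Oasl1, an interferon-induced antiviral gene, was at 81.0 ± 6.91 CPM in TolDC + LPS and 370.2 ± 16.5 CPM in BMDC + LPS (log2 -2.19 ± 0.059, edgeR adjusted p = 1.86e-15). The NF-kB targets were split, with 4 higher, 4 lower and 3 not called, a median of 0.02, and Il12b at 8.72 ± 0.188 CPM in TolDC + LPS and 185.2 ± 18.1 CPM in BMDC + LPS (log2 -4.41 ± 0.068, edgeR adjusted p = 3.14e-19). The share called under LPS was 90.9% of the interferon and 72.7% of the NF-kB targets, beside 67.9% of all genes. Without LPS, TolDC had 2 interferon targets higher and 6 lower, and 5 NF-kB targets higher and 2 lower. That is 72.7% and 63.6% called, beside 62.4% of all genes, so the NF-kB share was near that of all genes. The same BMDC + LPS libraries serve in the comparison of cell types and in the LPS response, so these counts are not independent of each other.

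The genes whose pattern over the 12 libraries was most like that of each member were sought among 9328 protein-coding genes, by the root mean square difference between log2 CPM values centred on each gene's mean. The closest to Cd14 were Procr, at a difference of 0.148, and Nfkbiz, at 0.278, and no other gene than Procr lay within 0.2. Closest to Irak3 were Filip1l (0.103) and Tlr2 (0.173), another Toll-like receptor gene, with 3 genes within 0.2. Irak2 was nearest to Pirb (0.122) and Cdc42bpa (0.134), and Ly96 to Gucd1 (0.0982) and Rabgef1 (0.110). Ticam2 was nearest to Dot1l (0.0651) and Ptk2 (0.0721), and Ticam1 to Gna13 (0.0522) and Htatip2 (0.0584). The patterns of Myd88, Irak1, Irak4 and Tirap were shared widely, with 2740, 2982, 1481 and 2264 genes within 0.2. Their closest genes were Wapl and Tsc22d4 for Myd88, Msn and Sart1 for Irak1, Tbl2 and Gnl3l for Irak4, and Arpp19 and Ptbp1 for Tirap.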

How the data were processed

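RNA was sequenced from 12 samples in 4 groups of 3, grouped by their titles. Per the labels' protocols, RNA was isolated with a Bioline ISOLATE II kit and made into strand-specific mRNA libraries (Illumina). The deposited tables hold raw, unnormalized read counts for each gene, made by the authors with cutadapt and STAR on mm10 (GRCm38), per the submitters' processing notes, which also name edgeR and limma. Versions and annotation were not given in the sources used here. Of the reads in a table, 9.34% to 9.85% matched several places, 7.10% to 8.01% lay outside genes, 1.04% to 1.18% were ambiguous and 1.52% to 2.11% were unmapped, and these were left out, as was 1 row with no gene identifier (0 counts). Counts of the sense strand (35.2 to 37.3 times the other strand) were used. Of 31053 identifiers, 31011 matched GENCODE M21, the source of positions and exon lengths. Levels in near-identical genes are uncertain where reads match several places.

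Genes were filtered with filterByExpr (13141 left), scaled by TMM (factors 0.945 to 1.04) and fitted over all 12 libraries with 1 mean per group by edgeR 4.0.16 quasi-likelihood in R 4.3.3 (biological coefficient of variation 0.0572). Adjusted p-values are Benjamini-Hochberg over all genes of a contrast. Tests were checked on simulated counts in which libraries were independent and few genes changed. That check does not cover a difference shared by libraries of the same number. Shares and ratios were compared by exact permutation tests over libraries. The members and lists were chosen with earlier results of these data known. Text names all members, Tlr4, called list genes with the largest change among those of at least 5 CPM, and the 2 genes most like each member. Exceptions chosen after their values were seen are Ifnb1, Mx1, Itgax, Flt3, Pecam1, Ccr2, Tmed7, Twf1 and, for its BMDC levels, Il6. The floor of 3 counts covers counting error only.

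Alternatives were DESeq2 1.42.0 size factors and Wald test, limma-voom (limma 3.58.1), no filter on low counts, counts without regard to strand, only the groups compared, the replicate number as a block, each library left out, the 4 libraries numbered 1 left out, and libraries 2 and 3 of a group summed. The last was tried because those 2 were closer (chi-square over its degrees of freedom 1.35 to 2.30) than either was to library 1 (5.16 to 11.6). All were above 1, and the libraries were kept separate. A value above 1 cannot show that libraries 2 and 3 came from separate mice or cultures. If they share a source, the 3 libraries of a group are fewer than 3 replicates and the p-values are too small.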

Additional observations from a re-analysis of the deposited data

Results flagged for a closer look

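The response to LPS differed between TolDC and BMDC for 5 of the 10 members by the edgeR interaction test, where 44.4% of all genes tested also passed. On the log2 scale, as TolDC minus BMDC, Irak2 differed by 0.84 (edgeR adjusted p = 2.89e-08), with all 3 libraries of each LPS group above those without LPS. Irak3 differed by 0.71 (edgeR adjusted p = 0.00129) and had its lowest LPS value in library 1 in both cell types. For Ticam2 the difference was -0.59 (edgeR adjusted p = 3.03e-06), with higher levels in TolDC than in BMDC at the start. Ly96 gave -0.39 (edgeR adjusted p = 0.0208) and Tirap -0.33 (edgeR adjusted p = 0.00948). The values of Ly96 and Tirap depended on single libraries or on the libraries numbered 1, as the values beside them in the results show.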

How the results depend on the processing

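The log2 changes of the 10 members in 5 contrasts were recomputed under every alternative, 1040 values in all. Of these, 960 kept their side of the threshold, 47 lost the call and 33 gained one. Of the values with a call in the main fit or the alternative, 0 reversed. A value without a call in both could change sign and still be counted as kept. For example, Ticam1 in TolDC against BMDC without LPS ranged from -0.07 to 0.02. By this count, 34 of the 50 results were the same throughout. The alternatives that scale libraries differently moved the median of all genes by less than 0.1 on the log2 scale. The number of members lower with LPS in TolDC was 2 with limma-voom and 1 to 2 with a library left out, and 2 in BMDC with only the 2 groups compared. In TolDC against BMDC without LPS, members higher numbered 1 without the libraries numbered 1 and 1 to 2 with a library left out, and members lower 1 with libraries 2 and 3 summed. With LPS, members lower numbered 2 with no filter and with libraries 2 and 3 summed, and members higher 1 with only the 2 groups compared or with that sum. In each case the cause was not tested. With libraries 2 and 3 summed, which leaves fewer libraries, these edgeR calls were lost: Irak1 with LPS in TolDC (0.11, adjusted p = 0.0543) and in BMDC (0.08, adjusted p = 0.151), Irak3 between the cell types without LPS (-0.37, adjusted p = 0.0564), Cd14 (-0.12, adjusted p = 0.118), Myd88 (-0.12, adjusted p = 0.0772), Irak1 (0.07, adjusted p = 0.193) and Irak3 (0.32, adjusted p = 0.0598) between them under LPS, and Ly96 in the difference between responses (-0.41, adjusted p = 0.0714). Without a filter, Cd14 (-0.09, adjusted p = 0.110) and Myd88 (-0.08, adjusted p = 0.156) lost theirs under LPS. Irak1 lost its own there with DESeq2 size factors, DESeq2's test, counts without strand, only the 2 groups compared, and without the libraries numbered 1 (0.06 to 0.07, adjusted p = 0.0527 to 0.156). With DESeq2's test, Cd14 passed in the difference between responses (-0.17, adjusted p = 0.0337). So did Ticam1 between the cell types under LPS (-0.13, adjusted p = 0.0386) and Myd88 between them without LPS (-0.11, adjusted p = 0.0243). Ticam1 also passed under LPS with DESeq2 size factors, counts without strand, only the 2 groups compared, and without the libraries numbered 1 (-0.10 to -0.13, edgeR adjusted p = 0.0160 to 0.0377).

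Library numbers were not treated as pairs in the main fit, because the deviations of 1 of 18 same-numbered pairs correlated below 0.1 (0.0910, the others up to 0.466). Pairs of different number correlated at -0.372 to 0.202. Libraries numbered 1 correlated at 0.330 to 0.466 with each other and negatively with all others. Missing that cut in 1 pair therefore does not show that the number can be ignored. Of the 12 libraries, 10 correlated best with their own number, a hint from the data and not from the design. With the replicate block, 2 members were lower with LPS in TolDC, and no member lost a call. The calls gained were those of Myd88 in that contrast and in TolDC against BMDC without LPS (-0.09, adjusted p = 0.0300), Ticam1 with LPS (-0.11, adjusted p = 0.00719) and Cd14 in the difference between responses (-0.17, adjusted p = 0.00713).

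Levels of the members rest on 185 to 27204 counts per library, so counting error weighs most for Ly96.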
